A study of Mus musculus with 47 samples.

Results

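Genes for the microtubule motors and their track were followed in single neurons that contain neuropeptide Y (NPY). The 84 genes were all those of the 22800 in the count table whose symbols name a kinesin (Kif), a kinesin light chain (Klc), a dynein chain (Dync, Dynll, Dynlrb, Dynlt), an alpha-, beta- or gamma-tubulin (Tuba, Tubb, Tubg), a classical microtubule-associated protein (Map1a, Map1b, Map2, Map4, Map6, Mapt) or a stathmin (Stmn1 to Stmn4). Membership was set by symbol alone, not by any measured value. The cells came from mice of the NPY-hrGFP strain, a reporter line that marks NPY-positive cells by a green fluorescent protein, at 3 to 8 weeks of age. The labels call the line NPY-EGFP and count 8 mice in all, and the study used males and females. The cytosol of each cell was drawn into a patch pipette, amplified and sequenced, so that 1 sample is 1 cell (Patch-RNAseq).

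Compared were 10 cells from layers 1 and 2 of the auditory cortex (AC), taken from coronal slices, and 13 from stratum lacunosum-moleculare of hippocampal area CA3, taken from horizontal slices. These are part of the 20 AC and 21 CA3 columns in the table. The study itself kept 10 AC and 20 CA3 cells after its quality control, so its CA3 set was larger than the 13 cells here. The cells compared here were picked by an earlier analysis, which matched columns with the expression maps printed by the study, so measured values took part in the choice of cells. Beside them stand 3 cells of area CA1. No source used here ties a cell to its mouse, and cells of 1 region may share one. Each region was therefore taken as 1 sample, no test between regions was run and no p-value is given. SDs are over cells, and intervals cover counting error only.

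Kinesins are motors that carry organelles, vesicles and RNA along microtubules, mostly towards the plus end, and in axons outwards from the soma. Cytoplasmic dynein is a large complex of heavy, intermediate, light intermediate and light chains that moves cargo the other way, while a separate form, dynein 2, works inside primary cilia. The track itself is built from alpha- and beta-tubulin isotypes, is nucleated by gamma-tubulin, is stabilised and spaced by microtubule-associated proteins such as tau, and is destabilised by stathmins, which bind free tubulin.

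The cells gave 1715012 to 6265431 reads in AC, 2229519 to 7949918 in CA3 and 601781 to 3202430 in CA1. In AC 3163 to 6288 genes had a read (median 5007.5) and in CA3 3679 to 8149 (median 5704). Mitochondrial genes took 0.25 to 1.52% of reads in AC (median 0.46%), 0.37 to 2.23% in CA3 (median 1.02%) and 0.04 to 1.27% in CA1. The part of this difference in the results was not tested. Levels are log2(normalized count + 1), and CPM are reads per 1000000 reads of the cell. Gad1, Gad2 and Npy, which define GABAergic neurons of this kind, had reads in all 26 cells. Slc32a1, which encodes the vesicular GABA transporter, had reads in 5 of 10 AC, 12 of 13 CA3 and 2 of 3 CA1 cells. Of the 25 genes that mark other cell types, Aqp4, Mog, Tmem119, Cldn5, Flt1 and Ly6c1 had no read in any of them. Astrocyte markers summed to 0 to 1089 CPM in AC (median 1.45) and to 0 to 0.4 CPM in CA3, microglial markers to 0 to 3707 CPM in AC (median 205) and 0 to 1864 CPM in CA3 (median 84.3), oligodendrocyte markers to 0 to 367 and 0 to 955 CPM, pyramidal cell markers to 0 to 137 and 0 to 204 CPM, and endothelial markers to 0 to 1.2 and 0 to 33.7 CPM. Markers of other cell types together passed 500 CPM in 4 AC cells (N4, N41, N42 and N46) and 4 CA3 cells (N26, N27, N28 and N39). They also came to 1539 CPM in CA1 cell N1 and to 547 CPM in N6, and to 107 CPM in N2X. Their part in the results was not tested, and values without these 8 cells are given for single genes and again after the gene groups. The values of the 3 CA1 cells are always given in the order N1, N2X and N6, and those of AC and CA3 as the lowest, the median and the highest cell.

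Microtubule genes made up much the same part of the reads in both regions. Their share was 0.786 to 1.79% of all reads in AC (median 1.24%) and 1.07 to 2.01% in CA3 (median 1.29%), and it was 0.66, 1.09 and 1.21% in the CA1 cells. From 32 to 48 of the 84 genes had a read in an AC cell (median 39) and 34 to 53 in a CA3 cell (median 46), while the number of all genes with a read was also higher in CA3. No read fell on 13 of the genes in either region. These were the mitotic motors Kif2b, Kif11, Kif14, Kif18b and Kif20b, then Kif6, Kif19a, Kif26a and Kif27, the light chain Dynlrb2, and the tubulins Tuba3a, Tuba3b and Tubb1. A further 24 had reads in fewer than 10 of the 23 AC and CA3 cells. The other 47 were compared.

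In mean level, 6 of the 47 (12.8%) were at least 1 log2 unit higher in AC and 15 (31.9%) at least 1 unit higher in CA3, where over the 5964 genes compared in the same way 15.4% and 48.1% were. The median difference between AC and CA3 was -0.33 over the 47 genes and -0.91 over all genes. This order depended on the cells used, since the medians were -0.84 and -0.87 without the 8 cells with over 500 CPM on markers of other cell types, and -1.20 and -1.19 with every labelled cell. Taken relative to the all-gene median of -0.91, 15 were higher in AC and 7 in CA3, beside 29.3% and 29.6% of all genes. Of the genes past a difference of 1 in either direction, the share that was higher in AC thereby moved from 28.6% (6 of 21) to 68.2% (15 of 22), and over all genes from 24.2% to 49.7%. Differences were mostly small against the variation among cells. The difference was larger than the pooled SD over cells in 6 genes higher in CA3 (9.66% of all genes), namely Dynlt3, Dynll2, Dync2h1, Tubb3, Stmn2 and Stmn3, and in 0 genes higher in AC (1.21% of all genes). In none of the 47 did the AC and CA3 cells separate without overlap, as they did for 0.0335% of all genes in either direction.

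**Figure D1:**
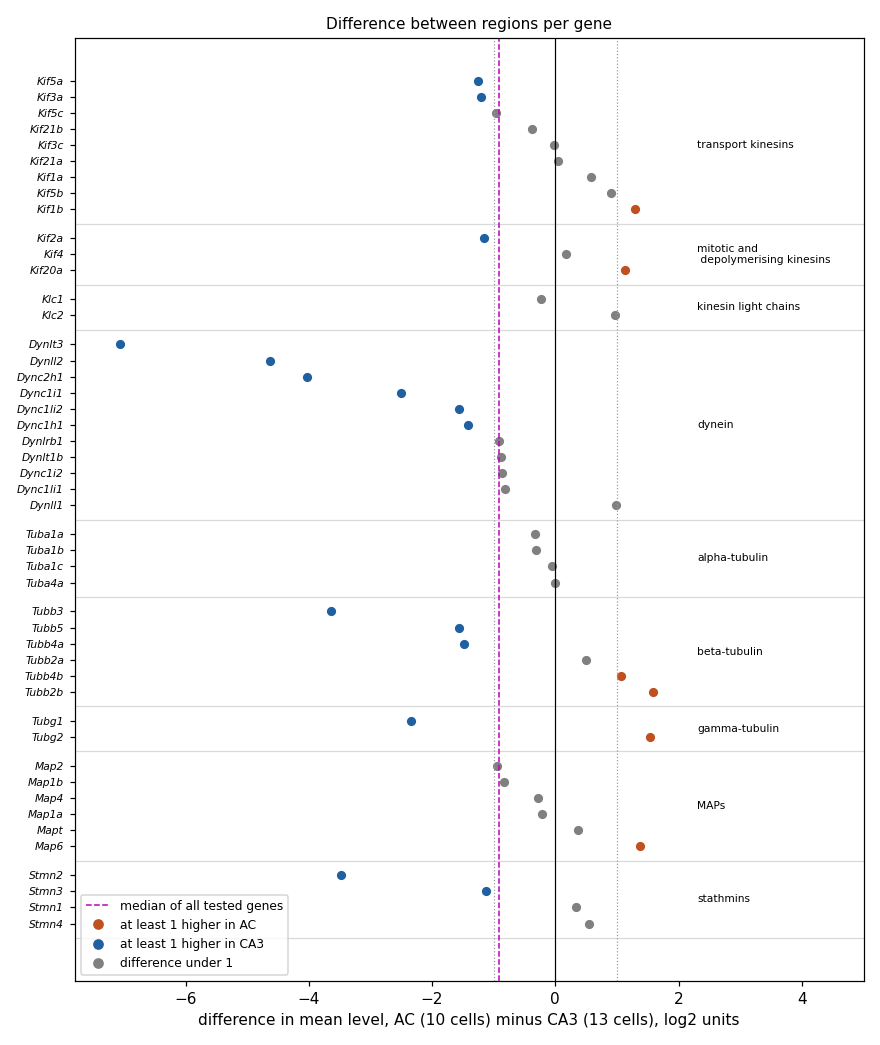
Difference in mean level between AC (10 cells) and CA3 (13 cells) for the 47 genes compared, in log2 units, grouped by role. Each point is 1 gene, dotted lines mark a difference of 1 and the dashed line the all-gene median of -0.91. Dynein genes reach furthest to the left, with Dynlt3 at -7.06, and 10 of the 11 lie below 0, beside 69.3% of all genes.

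Of the 6 genes furthest to each side, 3 a side are shown with their promoters, read from RefSeq for GRCm38.p6 as 250 bases before to 50 bases after the listed start of the gene. Dynll2, Stmn2, Dync1i1, Tubb2b, Map6 and Kif20a are not shown here. Promoters were found for 64 of the 84 genes, 71 in all. Dynlt3, Dync2h1 and Tubb3 were higher in CA3, and Tubg2, Kif1b and Tubb4b were higher in AC. For Kif1b 1 of 2 listed starts is printed. The listed start of Dync2h1 lies 7388 bases inside the gene as GENCODE places it, so that this window is not at the start given with its values. Capitals mark matches on either strand of TATAAA (the TATA box), of GGGCGG (the GC box), of CCAAT (the CCAAT box) or of TAATTA (a core that homeodomain proteins bind).
Dynlt3 (chrX:9662934-9663233, minus strand): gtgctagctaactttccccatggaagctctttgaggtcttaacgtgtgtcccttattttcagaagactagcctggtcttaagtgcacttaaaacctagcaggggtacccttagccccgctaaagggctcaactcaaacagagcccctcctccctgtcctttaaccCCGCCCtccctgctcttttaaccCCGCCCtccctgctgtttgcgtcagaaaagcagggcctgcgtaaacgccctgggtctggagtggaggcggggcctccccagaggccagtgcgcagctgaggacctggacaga
Dync2h1 (chr9:7177009-7177308, minus strand): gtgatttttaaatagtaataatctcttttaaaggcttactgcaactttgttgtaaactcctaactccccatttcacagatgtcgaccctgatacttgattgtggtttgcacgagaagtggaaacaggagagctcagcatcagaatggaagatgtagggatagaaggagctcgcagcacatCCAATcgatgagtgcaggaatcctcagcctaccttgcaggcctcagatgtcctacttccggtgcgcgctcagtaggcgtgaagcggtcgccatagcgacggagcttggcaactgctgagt
Tubb3 (chr8:123411303-123411602, plus strand): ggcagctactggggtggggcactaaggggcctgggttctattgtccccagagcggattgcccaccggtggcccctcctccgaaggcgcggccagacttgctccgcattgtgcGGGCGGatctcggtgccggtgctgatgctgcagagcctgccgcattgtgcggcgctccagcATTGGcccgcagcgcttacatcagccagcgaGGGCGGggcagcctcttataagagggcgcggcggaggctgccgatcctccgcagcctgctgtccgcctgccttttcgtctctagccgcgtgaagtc
Tubg2 (chr11:101155634-101155933, plus strand): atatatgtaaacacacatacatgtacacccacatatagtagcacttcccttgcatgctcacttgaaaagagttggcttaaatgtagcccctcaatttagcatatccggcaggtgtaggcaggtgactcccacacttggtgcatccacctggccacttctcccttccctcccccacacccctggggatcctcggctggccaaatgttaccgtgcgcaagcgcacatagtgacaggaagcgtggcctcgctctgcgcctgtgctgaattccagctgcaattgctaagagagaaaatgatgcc
Kif1b (chr4:149307649-149307948, minus strand): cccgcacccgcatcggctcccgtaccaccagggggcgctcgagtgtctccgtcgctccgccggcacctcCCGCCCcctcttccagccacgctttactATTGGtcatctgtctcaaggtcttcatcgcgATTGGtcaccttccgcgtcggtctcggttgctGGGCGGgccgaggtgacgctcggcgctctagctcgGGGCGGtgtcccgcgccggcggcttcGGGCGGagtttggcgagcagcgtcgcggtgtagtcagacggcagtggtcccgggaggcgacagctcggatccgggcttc
Tubb4b (chr2:25224653-25224952, minus strand): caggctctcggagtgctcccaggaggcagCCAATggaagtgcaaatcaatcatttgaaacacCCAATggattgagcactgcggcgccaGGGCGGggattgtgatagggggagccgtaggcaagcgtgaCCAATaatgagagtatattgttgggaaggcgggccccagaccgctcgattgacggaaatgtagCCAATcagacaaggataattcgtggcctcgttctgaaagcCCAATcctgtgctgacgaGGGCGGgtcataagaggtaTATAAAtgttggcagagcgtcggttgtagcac
The last of these held 1 match of TATAAA, 2 of GGGCGG and 5 of CCAAT, Kif1b held 4 of GGGCGG and 2 of CCAAT, and that of Tubg2 none of the 4 motifs. Of the genes higher in CA3, Dynlt3 held 2 of GGGCGG, Tubb3 2 of GGGCGG and 1 of CCAAT, and Dync2h1 1 of CCAAT. No match overlapped another. GGGCGG was in 69.0% of the 71 promoters and in 35.7% of all 32851 promoters in the table. The shares were 45.1 and 37.4% for CCAAT, 11.3 and 13.6% for TATAAA, and 1.41 and 5.29% for TAATTA.

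Dynein genes had the largest differences. Of 16, 11 were compared, 6 of these (54.5%, beside 48.1% of all genes) were at least 1 unit higher in CA3 and 0 in AC (beside 15.4%), and their median difference was -1.41. All 3 genes whose share of cells with a read was at least 50 percentage points higher in CA3 belonged here, Dynlt3, Dynll2 and Dync2h1, and no gene of the 47 was so in AC (3.57% and 0.218% of all genes). Reads of the 16 genes summed to 293 to 4212 CPM with a median of 1283 in AC and to 1226 to 3282 CPM with a median of 2056 in CA3. The highest sum, that of AC cell N42, lay above every CA3 cell, whereas 5 of the 10 AC cells lay below every CA3 cell.

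Dynlt3 (chrX:9654267-9663003, minus strand) encodes a light chain of the Tctex type, which links dynein to cargo. The lowest, median and highest AC cells had 0, 0 and 688 CPM, and the lowest, median and highest CA3 cells 0.126, 577 and 1394 CPM. CA1 cells N1, N2X and N6 had 0, 510.2 and 141 CPM. Only N42, N5 and N8 of the 10 AC cells had any read (688, 169 and 274 CPM), while 12 of 13 CA3 cells had 187 CPM or more and N39 had a single read. Among the AC columns left out of the comparison, only N45 had reads on the gene (216 CPM). The mean level was 3.06 ± 4.96 (SD, n = 10) in AC and 10.12 ± 3.02 (SD, n = 13) in CA3, a difference of -7.06, and of -2.46 as the log2 ratio of mean CPM. Over cells with a read it was 10.18 in AC and 10.12 in CA3. Over cells with at least 10 reads, which leaves out N39, it was 10.18 in 3 AC and 10.92 in 12 CA3 cells, a difference of -0.74. Pooled over cells, the gene had 137 CPM (133 to 141) in AC and 542 CPM (535 to 548) in CA3, with exact Poisson 95% intervals in brackets. N42, the AC cell with the most Dynlt3 reads for its depth, was the one with the fewest genes read (3163).

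Dynll2 (chr11:87979525-87987533, minus strand), a light chain of the LC8 type that also serves as a hub in other complexes and in myosin V, followed the same course. AC cells had 0, 0 and 179.5 CPM, CA3 cells 13.1, 86.9 and 212 CPM and CA1 cells 0, 0 and 22.8 CPM. Reads came from 4 of 10 AC cells and from all 13 CA3 cells, and the difference was -4.63 over all cells and 0.40 over cells with a read, and -1.14 as the log2 ratio of mean CPM. The closely related Dynll1 did not share this. It had reads in all 10 AC and in 12 of 13 CA3 cells (15.3, 201 and 1226 CPM in AC, 0, 240.5 and 866 CPM in CA3), with a difference of 0.98, the only positive value among the 11 dynein genes. It fell to 0.29 without CA3 cell N27 and to 0.35 without the 8 cells with over 500 CPM on markers of other cell types.

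Dync2h1 (chr9:6928503-7184446, minus strand), the heavy chain of ciliary dynein 2, had 0, 0 and 195 CPM in AC, 0, 38.6 and 246 CPM in CA3 and 188, 28.4 and 0 CPM in CA1. In AC nearly all of its reads came from N5, with 1 read in N41, whereas 10 of 13 CA3 cells had reads, 8 of them at least 10. The difference was -4.03. Its light intermediate chain Dync2li1, with reads in too few cells to be compared, had 0 reads in the 10 AC cells, where 3 reads in their sum were taken as the floor, and 2894 reads in 6 of 13 CA3 cells (59.2 CPM pooled), at least 672-fold higher. Of the 6 CA3 cells with Dync2li1 reads (N26, N29, N32, N33, N34 and N38), each had Dync2h1 reads too, but N26 only 1 and N34 only 5.

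Among the chains of the transport complex, dynein 1, the intermediate chain Dync1i1 (chr6:5725639-6028039, plus strand) had 0, 0 and 665 CPM in AC, 0, 91 and 641 CPM in CA3 and 0, 0 and 501 CPM in CA1. It had reads in 4 AC cells, of which N43 and N46 reached 500.1 and 665 CPM, and in 9 CA3 cells, and differed by -2.50. Over cells with at least 10 reads (3 of AC, 8 of CA3) the difference was 1.09. As the log2 ratio of mean CPM it was under 1 towards CA3. Its partner isoform Dync1i2 was at -0.86. The light intermediate chains Dync1li2 and Dync1li1, which hold cargo adaptors, were at -1.56 and -0.82. The heavy chain Dync1h1, which carries the motor domain, was at -1.41 with 0, 12.5 and 1879 CPM in AC and 0, 168 and 441 CPM in CA3, and AC cell N42 alone held 60.3% of its AC reads. The mean CPM of Dync1h1 over cells was higher in AC than in CA3. All 6 compared dynein chains named Dync were below 0, as were 69.3% of all genes, though Dync1li1 was at 2.94 without the 8 cells with over 500 CPM on markers of other cell types. The reads of these 6 genes summed per cell had a median of 752 CPM in AC and 718 CPM in CA3. With Dync2li1 added, which had no read in AC, the medians were 752 and 773 CPM.

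Per kilobase of exon, Dynlrb1 (chr2:155236533-155250277, plus strand), a light chain of the roadblock type, was the most abundant dynein gene, with a mean of 264 CPM per kb in AC, 374 in CA3 and 160.5 in CA1. Every cell had reads on it, 23.2, 261 and 541 CPM in AC, 141, 367 and 799 CPM in CA3 and 69.8, 187 and 229 CPM in CA1. The ranges overlapped widely and the difference was -0.92, close to the all-gene median. The Tctex genes Dynlt1a, Dynlt1b, Dynlt1c and Dynlt1f, of which only Dynlt1b was compared (-0.88), share 70.5 to 88.9% of their 50-base sequences with other genes, chiefly each other, so their counts are uncertain.

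**Figure D2:**
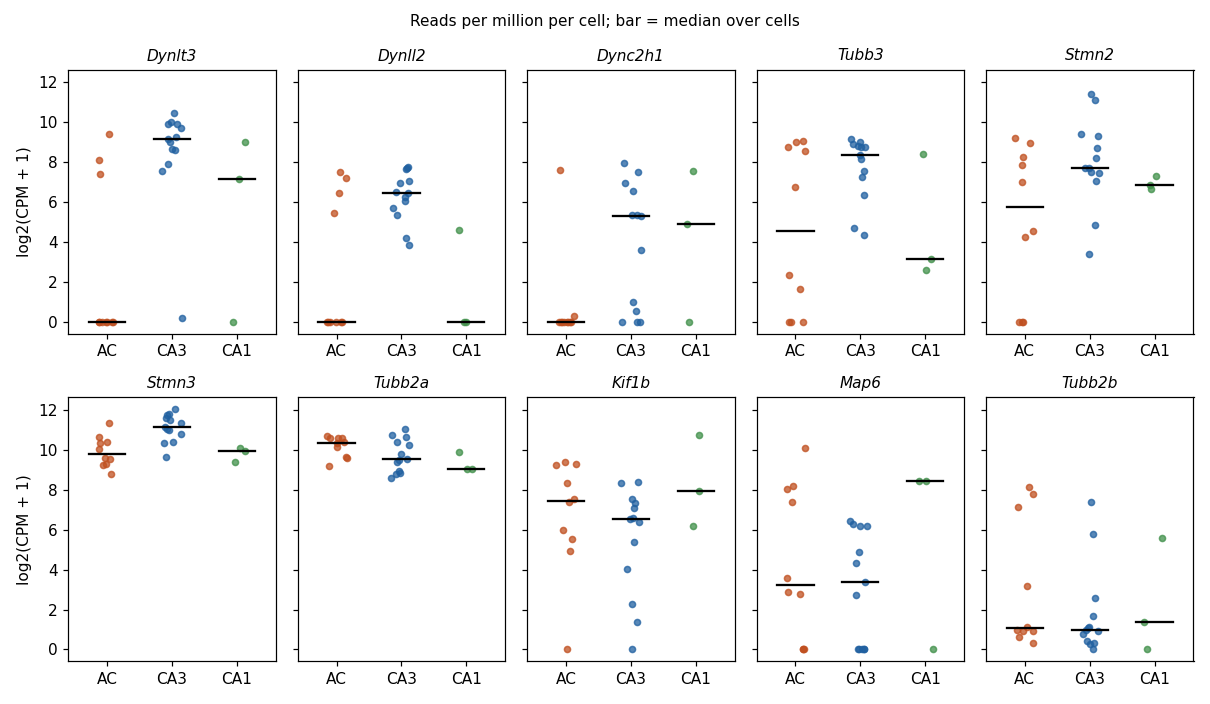
CPM of 10 genes in each AC (10), CA3 (13) and CA1 (3) cell, on a log2(CPM + 1) axis. Points are cells and bars medians. For Dynlt3, Dynll2 and Dync2h1 most AC cells sit at 0 and those above 0 lie within the CA3 range, whereas Stmn3 and Tubb2a have reads in every cell.

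Transport kinesins lay on both sides of 0. Of 17, 9 were compared, 1 was higher in AC (Kif1b, 11.1%, beside 15.4% of all genes) and 2 in CA3 (Kif5a and Kif3a, 22.2%, beside 48.1%), and their median difference was -0.02. Without the 8 cells 7 of the 9 were below 0 and 5 at -1 or less, as were 9 and 9 of the 11 dynein genes, beside 65.9% and 47.1% of all genes. Their summed reads were 1508 to 3161 CPM with a median of 2626 in AC and 924 to 2828 CPM with a median of 1539 in CA3, the reverse order of the dynein sums. The ranges overlapped.

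Kif1b (chr4:149176319-149307693, minus strand), a kinesin-3 that carries synaptic vesicle precursors and mitochondria, had 0, 176 and 669.5 CPM in AC, 0, 93 and 337 CPM in CA3 and 248, 1727 and 71.5 CPM in CA1. The difference was 1.30, on mean levels of 8.34 ± 3.36 in AC (SD, n = 10) and 7.03 ± 3.13 in CA3 (SD, n = 13). N3X, N42 and N43 (669.5, 628 and 615 CPM) lay above every CA3 cell, while N41 had no read. With each cell left out in turn the difference ran from 0.72 (without CA3 cell N39) to 2.23 (without N41). Kif1a, its close relative and a carrier of dense core vesicles, was at 0.58 with medians of 359.6 CPM in AC and 154 CPM in CA3. Its difference ran from -0.05 (without CA3 cell N40) to 1.48 (without AC cell N42) with 1 cell left out.

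Kif3a (chr11:53567379-53601967, plus strand), a subunit of heterotrimeric kinesin-2 that serves axons and cilia, had the highest length-scaled mean of the transport kinesins over AC and CA3, 64.9 CPM per kb in AC and 85.3 in CA3. Its cells had 0, 204 and 828 CPM in AC, 0, 276 and 686 CPM in CA3 and 0, 148 and 0 CPM in CA1, and the highest cell was AC cell N44. The difference of -1.21 ran from -1.92 without CA3 cell N28 to -0.39 without AC cell N43, each the cell of its region with no read. Kinesin-1, the main outward motor of axons, is built from Kif5a, Kif5b or Kif5c. Kif5a was at -1.25, Kif5c at -0.97 and Kif5b at 0.90. Kif5c came to -0.20 without AC cell N41 and to -0.05 without the 8 cells with over 500 CPM on markers of other cell types. Kif5a came to -0.43 without AC cell N43. By length-scaled reads Kif5c led in 5 of 10 AC, 8 of 13 CA3 and 1 of 3 CA1 cells, with a mean share of 43.1 ± 32.9% in AC and 54.8 ± 20.1% in CA3, whereas Kif5b had 29.4 ± 24.4% and 15.8 ± 15.1% and Kif5a 27.5 ± 30.8% and 29.4 ± 20.1% (SD over cells). The SDs were larger than the differences between regions.

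Kinesins of the spindle and microtubule-depolymerising kinesins were mostly low or without reads. Of 14, 5 had none in AC or CA3 and 3 were compared. Kif2a (chr13:106958996-107022126, minus strand), which takes apart microtubule ends also in neurons, led them per length over AC and CA3 together, with 13.7 and 11.4 CPM per kb, beside 18.5 and 4.47 for Kif20a, which led in AC. It had 0, 0.203 and 417 CPM in AC, 0, 7.21 and 263 CPM in CA3 and 115, 248 and 17.1 CPM in CA1. Its difference of -1.16 ran from -1.95 (without N44) to -0.75 (without N32) with 1 cell left out. It became 0.27 when mean CPM were compared, and 1.22 without the 8 cells with over 500 CPM on markers of other cell types. Kif20a (chr18:34624613-34633277, plus strand), known from cytokinesis, had 0, 2.78 and 452 CPM in AC, 0, 0 and 128 CPM in CA3 and no read in CA1. Its difference of 1.13 was 0.35 without N41, its highest AC cell, and -0.63 without the 8 cells, to which N41 belongs. Of its 50-base sequences 25.2% lie in the overlapping gene Cdc23 too. Kif4, a chromosome motor, had at most 8.75 CPM in any AC and 5.6 CPM in any CA3 cell. Of the 6 kinesins of cilia and other roles, none had reads in 10 cells. Kif9 (chr9:110476958-110525179, plus strand), a motor of motile cilia, led them per length over AC and CA3 and had reads in AC cell N5 (6.35 CPM) and in CA3 cells N33, N34, N37 and N40 (1.29, 47.9, 149.9 and 176 CPM), and none in CA1.

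Of the kinesin light chains, which tie kinesin-1 to cargo, 2 of 4 were compared and neither reached a difference of 1, which 15.4% (higher in AC) and 48.1% (in CA3) of all genes did. Klc1 (chr12:111758849-111807844, plus strand) was read in every cell, with 60.6, 751 and 1729 CPM in AC, 217, 910.1 and 1383 CPM in CA3 and 452, 611 and 869.7 CPM in CA1, and a difference of -0.24. Its mean of 198 CPM per kb in AC and 200 in CA3 was the highest of the light chains. The lowest AC cell was N4, and without it the difference was 0.14. Klc2 was at 0.96, or 0.27 without N4, and had at least 10 reads in 4 AC and 2 CA3 cells. Klc4, with reads in 9 of the 23 cells and therefore not compared, had 282, 271, 216, 211 and 118 CPM in N3X, N7, N43, N4 and N5 of AC, and 119 and 89.1 CPM in N29 and N32 of CA3, while no other CA3 cell had over 3.35 CPM.

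**Figure D3:**
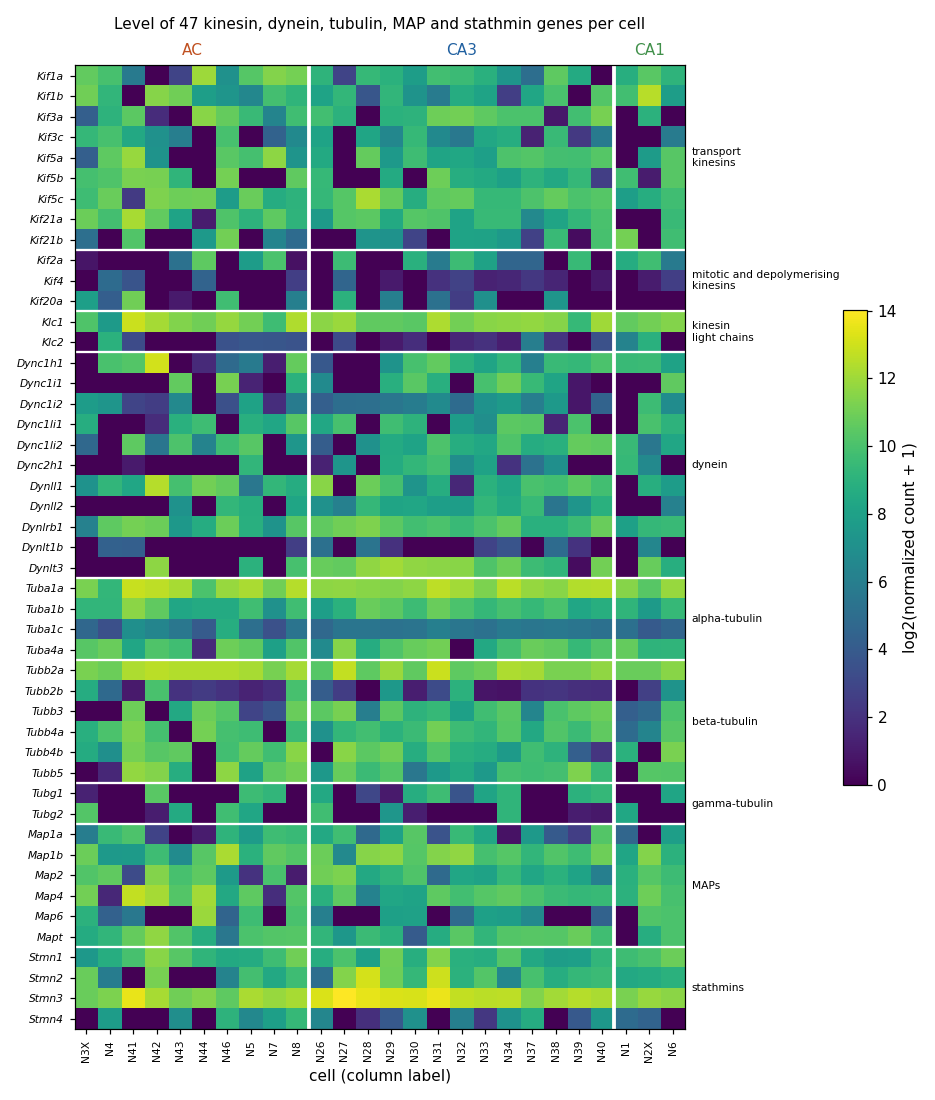
Level, as log2(normalized count + 1), of the 47 genes compared (lines) in the 26 cells (columns), grouped by role and region. Dark fields are cells without reads. Tuba1a, Tubb2a, Klc1 and Stmn3 are bright in every cell, while Dynlt3, Dynll2 and Dync2h1 are dark in most AC cells.

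Of the 4 alpha-tubulins compared 0 differed by 1 or more, beside 15.4% (higher in AC) and 48.1% (in CA3) of all genes, though Tuba1b was at -1.05 without the 8 cells with over 500 CPM on markers of other cell types. All 4 lay between -0.33 and -0.01, and the summed reads of the 7 genes were 403 to 2415 CPM with a median of 1838 in AC and 1031 to 2867 CPM with a median of 1785 in CA3. Tuba1a (chr15:98949837-98953703, minus strand), the main alpha-tubulin of neurons, had 191, 1235 and 1628 CPM in AC, 827, 938 and 1971 CPM in CA3 and 811, 389 and 1184 CPM in CA1, and differed by -0.33. It made up 71 ± 16.2% of length-scaled alpha-tubulin reads in AC and 73 ± 11.5% in CA3 (SD over cells). It led in 9 of 10 AC, 13 of 13 CA3 and 3 of 3 CA1 cells. The exception was AC cell N4, in which Tuba4a led with 42.8% against 29.7% for Tuba1a. Tuba1a shares 75.5% of its 50-base sequences with other genes, among which Tuba1c holds 46.9%, so the split among alpha-tubulins is uncertain.

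Of the 6 beta-tubulins compared, 2 were higher in AC (33.3%, beside 15.4% of all genes), 3 in CA3 (50%, beside 48.1%) and 1 was under a difference of 1. Tubb2a (chr13:34074274-34078007, minus strand), a broadly used neuronal isotype, led in all 26 cells by length-scaled reads. It had 577, 1321 and 1659.8 CPM in AC, 383, 744 and 2125 CPM in CA3 and 518, 530.2 and 951 CPM in CA1, a difference of 0.50 beside a pooled SD of 0.78, or of 1.41 relative to the all-gene median. Of its 50-base sequences 49.6% lie in other genes too, chiefly Tubb2b, so the split between them is uncertain. Its share of beta-tubulin was 61.5 ± 11.4% in AC and 54 ± 10.5% in CA3.

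Tubb3 (chr8:123411424-123422015, plus strand), the isotype restricted largely to neurons and the antigen of the TUJ1 antibody, was the tubulin with the largest difference, -3.64 beside a pooled SD of 3.47. AC cells had 0, 55.5 and 523 CPM, CA3 cells 19.4, 323 and 570.3 CPM and CA1 cells 4.99, 7.81 and 337 CPM. As the log2 ratio of mean CPM, the difference was under 1 towards CA3. The AC cells fell into 5 with 107 to 523 CPM, within the CA3 range, and 5 with 3.99 CPM or less, under the lowest CA3 cell. Its mean level was 5.79 ± 4.93 in AC (SD, n = 10) and 9.43 ± 1.67 in CA3 (SD, n = 13), and its share of beta-tubulin 6.37 ± 7.52% and 16.2 ± 11.8%, with the highest share of 45.4% in CA3 cell N26. Tubb5 and Tubb4a, a widespread and a brain isotype, were at -1.57 and -1.49. Over cells with a read, Tubb5 was at 9.34 in AC and 9.04 in CA3, and Tubb4a at 10.05 and 9.52.

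Tubb4b (chr2:25222160-25224702, minus strand), an isotype found in most tissues and in cilia, had 0, 296 and 841 CPM in AC, 0, 157 and 752 CPM in CA3 and 139.6, 0 and 758 CPM in CA1. The difference was 1.07, and the ranges overlapped. It was 2.07 without AC cell N44, which had no read, 0.42 without CA3 cell N26, which had none either, and 0.09 without the 8 cells with over 500 CPM on markers of other cell types. Of its 50-base sequences 41.3% lie in other genes too, mainly a pseudogene. Tubb2b (chr13:34126748-34130466, minus strand), an isotype of developing neurons, had the largest difference towards AC, 1.58, with 0.229, 1.09 and 283 CPM in AC, 0, 0.937 and 168 CPM in CA3 and 0, 1.56 and 46.3 CPM in CA1. The medians were close, and without N42 the difference was 0.96. Only 4 AC cells and 3 CA3 cells had at least 10 reads, and N8, N42 and N3X of AC (283, 221 and 138 CPM) with N32 and N29 of CA3 (168 and 54.9 CPM) stood above all others. It shares 36.9% of its 50-base sequences with other genes, chiefly Tubb2a, which was read in every cell.

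**Figure D4:**
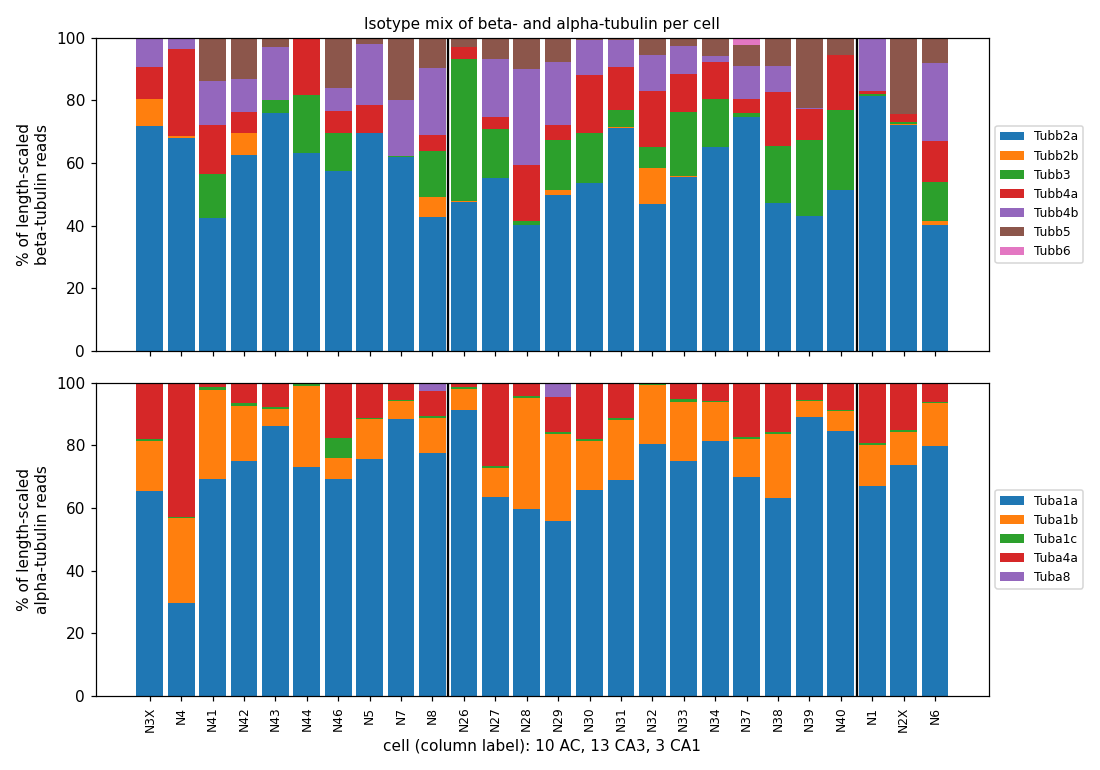
Isotype mix of beta-tubulin (top) and alpha-tubulin (bottom) in each cell, as percent of length-scaled reads of the family. Each bar is 1 cell and vertical lines part 10 AC, 13 CA3 and 3 CA1 cells. Tubb2a (blue, top) leads in all 26 cells, Tubb3 (green, top) has a mean share of 6.37% in AC and 16.2% in CA3, and Tuba1a (blue, bottom) leads in all cells but N4.

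The 2 gamma-tubulins, which nucleate microtubules, differed in opposite directions. Tubg1 (chr11:101119938-101126419, plus strand), the main form, had 0, 0 and 300.3 CPM in AC, 0, 98.6 and 229 CPM in CA3 and 0, 0 and 96.7 CPM in CA1, and was at -2.34. Over cells with a read the sign turned, 7.66 in 4 AC cells and 7.03 in 10 CA3 cells. Tubg2 (chr11:101155907-101161787, plus strand), its neighbour and near copy with high use in brain, had 0, 0.13 and 403 CPM in AC, 0, 0 and 249 CPM in CA3 and 93.1, 0 and 0 CPM in CA1, and was at 1.53. Its reads came mostly from N3X, N46, N43 and N5 of AC (403, 243, 114 and 103 CPM) and N26, N34 and N29 of CA3 (249, 181 and 52.1 CPM). Without N3X the difference was 0.81. Tubg1 and Tubg2 share 11.1% and 14.3% of their 50-base sequences with other genes, nearly all with each other.

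Of the 6 microtubule-associated proteins 1 was higher in AC (16.7%, beside 15.4% of all genes) and 0 in CA3 (beside 48.1%), and the median difference was -0.24. Mapt (chr11:104231390-104332090, plus strand), which encodes tau, led them per length with 40.4 CPM per kb in AC and 34.8 in CA3. It had 13.2, 358 and 716 CPM in AC, 4.29, 233 and 578 CPM in CA3 and 0, 123 and 339 CPM in CA1, and a difference of 0.37, which was -0.06 without CA3 cell N30. Map1b and Map2, of growing axons and of dendrites, were at -0.83 and -0.95, Map4 and Map1a at -0.28 and -0.21. With 1 AC cell left out, Map2 came to -0.21 (N8), Map4 to 0.56 (N4) and Map1a to 0.51 (N43). Map6 (chr7:99267447-99337137, plus strand), also known as STOP and a stabiliser of cold-resistant microtubules, was at 1.37, with 0, 8.61 and 1076 CPM in AC, 0, 9.26 and 84.7 CPM in CA3 and 0, 348 and 343 CPM in CA1. The AC cells N44, N8, N5 and N3X lay above every CA3 cell, and N44 held 53.5% of AC reads. Without N44 the difference was 0.66.

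Of the 4 stathmins, 2 (50%, beside 48.1% of all genes) were higher in CA3 and 0 in AC. Stmn3 (chr2:181306459-181314500, minus strand), which encodes SCLIP of neurons, was read in all cells, with 437, 905 and 2650.5 CPM in AC, 796, 2301 and 4178 CPM in CA3 and 678, 1104 and 994 CPM in CA1. The mean level was 11.72 ± 0.88 in AC (SD, n = 10) and 12.84 ± 0.72 in CA3 (SD, n = 13), a difference of -1.12 beside a pooled SD of 0.80, and of -0.99 without AC cell N46. Relative to the all-gene median it was -0.21. It also led all classes per length, with 981 CPM per kb in AC and 2126 in CA3, and made up 81 ± 9.55% of length-scaled stathmin reads in AC and 90.1 ± 5.76% in CA3. Stmn1, the widespread form, had 12.6 ± 8.31% and 5.1 ± 3.29%.

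Stmn2 (chr3:8509360-8561606, plus strand), or SCG10 of growing axons, had 0, 73.6 and 599 CPM in AC, 9.42, 206 and 2757 CPM in CA3 and 99.7, 115 and 157 CPM in CA1, and differed by -3.48 beside a pooled SD of 3.47. Reads were absent in AC cells N41, N43 and N44 and present in all CA3 cells, of which N28, N31, N27 and N29 (2757, 2184, 671 and 622 CPM) exceeded every AC cell. Over cells with a read the level was 8.89 in AC and 9.70 in CA3. Stmn1 and Stmn4 were at 0.34 and 0.55. Reads of the 4 genes summed to 723 to 2873 CPM with a median of 1525 in AC and to 1309 to 6467 CPM with a median of 2662 in CA3.

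Of 73 further genes of the pathway, among them dynactin and dynein adaptors, kinesin partners, tubulin chaperones, tubulin-modifying enzymes, end-binding proteins and severing enzymes, 57 were compared, and 10 (17.5%) were higher in AC and 26 (45.6%) in CA3, with a median difference of -0.66. These shares lay near those over all genes. Tubulin folding and modification had the lowest median, -1.66 over 12 genes, with 7 higher in CA3 (58.3%, beside 48.1% of all genes) and 1 in AC (8.33%, beside 15.4%). The largest differences towards CA3 were those of Tbca (-4.36), a cofactor that captures beta-tubulin during folding, and of Katnal1 (-4.01), which encodes a katanin-like severing enzyme. Tbca had 0, 3.94 and 156 CPM in AC and 0, 93.7 and 387 CPM in CA3, with reads in 5 of 10 and 12 of 13 cells. Katnal1 had 0, 0 and 143 CPM and 0, 28.3 and 207 CPM. Towards AC these were Mapre1 (1.76), which encodes the end-binding protein EB1, the polymerase Ckap5 (1.74) and the kinesin-1 adaptor Mapk8ip1 (1.74). Mapre1 had 0, 87.2 and 542 CPM in AC and 0, 6.28 and 467 CPM in CA3, Ckap5 0, 30.1 and 462 CPM and 0, 0.629 and 291 CPM, and Mapk8ip1 0, 27.8 and 77.9 CPM and 0, 3.25 and 42.2 CPM. Cells of both regions overlapped for each of these genes.

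Without the 8 cells with over 500 CPM on markers of other cell types, 14.9% of the 47 genes were higher in AC and 46.8% in CA3, beside 20.0% and 47.1% of all genes. The 6 genes whose difference exceeded the pooled SD were then at -7.73 (Dynlt3), -4.17 (Dynll2), -4.80 (Dync2h1), -3.27 (Tubb3), -3.22 (Stmn2) and -1.03 (Stmn3). Among the others with a difference of 1, Dync1h1 was at -5.66, Dync1i1 at -3.91, Dync1li2 at -2.65, Kif5a at -3.63, Kif3a at -2.29, Tubb4a at -3.25 and Tubg2 at 2.45, each over 1.5 times as far from 0 as with all cells. In contrast, Kif2a (1.22) and Kif20a (-0.63) turned sign, and Tubb4b fell to 0.09. Of genes under 1, Kif5b (-2.26) and Dync1li1 (2.94) turned sign and passed 1. With their sign kept, Kif1a (2.18), Kif3c (-2.49), Kif21b (-2.23), Dynlrb1 (-1.79), Map1a (-1.26), Dync1i2 (-1.20), Dynlt1b (-1.05) and Tuba1b (-1.05) passed 1. Klc2 (-0.27), Kif21a (-0.84), Kif4 (-0.30) and Stmn1 (-0.01) turned sign and lay under 1.

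Over cells with a read only, for the 46 genes read in at least 3 cells of each region, 23.9% were higher in AC and 10.9% in CA3, beside 25.6% and 20.8% of 5728 genes, and the all-gene median was 0.05. With every labelled cell, the columns N4 and N4X of AC taken as 1 cell, thus 19 of AC and 21 of CA3, 2.13% were higher in AC and 66.0% in CA3, beside 7.91% and 55.1% of all genes. Of the 6 genes higher in AC among the 23 cells, 5 were then lower in AC than in CA3, and Tubg2 was at 0.97. Of the AC columns added, N9, N47, N48, N49, N50, N51 and N52 had reads on 738 to 1814 genes and none on Tubb2a. Of the CA3 columns added, N17 and N36 had reads on 633 and 1753 genes. The part of these columns in the turned signs was not tested. With each of the 23 cells left out in turn, Dynlt3, Dynll2, Dync2h1, Tubb3, Stmn2, Dync1i1 and Tubg1 kept a difference of at least 1 towards CA3. The other 8 of the 15 genes higher in CA3 (Kif3a, Kif5a, Kif2a, Dync1h1, Dync1li2, Tubb4a, Tubb5 and Stmn3) and all 6 genes higher in AC came under 1 without at least 1 of the cells. Of all genes higher in CA3 76.8%, and of those higher in AC 61.1%, kept a difference of at least 1 throughout.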

How the data were processed

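Per the labels and the methods of the study, poly-A RNA of single cells was amplified into Nextera XT libraries, a kit that does not mark strand, and counted per gene on GRCm38 after trimming with Trimmomatic and alignment with STAR. The study names Flexbar and HTSeq as well, the submitters' processing notes featureCounts, and where several Ensembl genes had 1 symbol their counts were averaged. What the authors deposited is a single matrix of unnormalized counts with 47 columns. Reads are amplified copies, not molecules, and the intervals given (95%) cover counting error only.

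Size factors came from scran 1.30.0 in R 4.3.3 (pools of 10 and 20) over the 26 cells, and levels are log2(normalized count + 1). Genes read in 10 or more of the 23 AC and CA3 cells were compared by the difference in mean level. With 1 sample a region no test between regions was run, and a difference of 1 stands in for a call. Gene positions, lengths and shared 50-base sequences are from GENCODE vM21 of GRCm38, which holds all 84 symbols. Cells are named by their column labels.

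Values are given in full for the 6 genes that differed most towards each region, for the gene with the highest length-scaled level of each role, and for up to 3 other pathway genes towards each, of which 1 is not reported here. Genes and lists were chosen with earlier results of these data known. Alternatives were TMM factors of edgeR 4.0.16, poscounts factors of DESeq2 1.42.0, library size, pseudocounts of 10 and 0.1, mean CPM, reads thinned to 1715000 per cell (seed 1), no filter, all labelled cells (N4 and N4X as 1) and each cell left out. The steps were also run on simulated counts with known changes. These lacked the mix of cells at 0 and cells with many reads seen here, so that case was not tested. Python 3.11.15, numpy 2.4.6, pandas 2.3.3, scipy 1.17.1 and matplotlib 3.10.9 were used. The 2 dentate gyrus columns and the NPY-negative column entered no comparison.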

Additional observations from a re-analysis of the deposited data

Results flagged for a closer look

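Among the 10 AC cells, 1 cell stood apart from the other 9 by the 95% value of Dixon's test in 9 of 36 sets of values looked at. Chance gives about 1 in 20 for separate, normally spread values. These sets overlap and several hold many cells at 0, so the 9 are not separate observations. The 6.35 CPM given next are the Kif9 reads of N5, and the sum of the Dync chains in N42 is part of its sum over all dynein genes. Groups of 13 cells were not looked at in this way. The level was 0 for Kif1b in N41 and 0 for Tubb4b in N44, while the other AC cells had reads. It was 9.22 for Dync2h1 and 4.34 for Kif9 in N5, the AC cell with the most genes read, and 5.55 for Mapt in N46, lower than in the other AC cells. Summed reads were high for the mitotic and depolymerising kinesins in N41 (1127 CPM), for the kinesins of cilia and other roles in N5 (6.35 CPM), and for all dynein genes (4212 CPM) and the Dync chains (1890.4 CPM) in N42. N41, N42 and N46 were also among the cells with over 500 CPM on markers of other cell types, whose part in these values was not tested.

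Reads on genes without any in the 26 cells appeared in columns that took no part in the comparison. Kif11 had 35 and Kif27 96 reads in N45 and Tubb1 14 reads in N50, both of AC, and Kif14 had 18 reads in N15 of CA3.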

How the results depend on the processing

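Counts of genes at least 1 unit higher in AC (6) and in CA3 (15) stayed within 1.5 times under TMM, poscounts and library-size factors, both pseudocounts, thinning and no filter. They were 11 and 6 with mean CPM, 15 and 7 relative to the all-gene median, 1 and 31 with all labelled cells and 1 and 32 with these and library size, and 11 and 6 over cells with a read. The share of such genes that was higher in AC was 28.6% as reported, 25% under TMM, 27.3% under poscounts and library-size factors, 24.1% without the 8 cells with over 500 CPM on markers of other cell types, 3.13% with all labelled cells and 68.2% relative to the all-gene median. With 1 cell left out the counts ran from 3 (without N46 or N8) to 9 in AC and from 14 to 18 in CA3, and the median from -0.55 to -0.27. Signs turned with all labelled cells for Tubb2b (-0.94), Map6 (-1.15), Kif1b (-0.81), Kif20a (-1.04), Tubb4b (-0.55) and Tubb2a (-3.30), and with library size there to -0.97, -0.99, -0.95, -1.05, -0.57 and -3.16, where Mapt turned too (-1.48). Dynlrb1 was at -3.91 and -3.89 and Tuba1a at -2.33 and -2.72 under these 2 settings. As the log2 ratio of mean CPM, Dynlt3 was at -2.46, Dynll2 at -1.14 and Kif9 at -5.51. In that measure Dync1i1, Tubb3 and Tubg1 came under a difference of 1, and Dync1h1 was higher in AC. Relative to the all-gene median, Tuba1a was at 0.58, Tubb2a at 1.41 and Stmn3 at -0.21. Signs also turned for Kif2a with mean CPM (0.27) and without the 8 cells (1.22), as did Kif20a (-0.63), and over cells with a read for Dynlt3 (0.06), Dynll2 (0.40) and Tubg1 (0.63). Over cells with at least 10 reads Dynlt3 was at -0.74, its single read in N39 left out, and the sign turned for Dynll2 (0.40), Dync2h1 (1.43, with 1 AC cell), Tubb3 (0.85), Dync1i1 (1.09), Kif2a (0.82) and Tubg1 (1.49). The cause was not tested. All labelled cells with library size, the 8 cells left out, cells with a read only and cells with at least 10 reads were chosen after seeing the data. No paired analysis was possible because no source ties cells to mice and a cell's number is only a name. In CA1, 3 cells and as few as 601781 reads limit what can be seen.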

Other observations

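In the columns that took no part, reads fell on 5 to 46 of the 84 genes in 10 further AC columns (40934 to 6235022 reads) and on 6 to 34 in 8 further CA3 columns (111958 to 2467435 reads). AC column N45 (5265115 reads, 6209 genes read) had reads on the genes furthest towards CA3. These were 216 CPM on Dynlt3, 28.1 on Dynll2, 7.22 on Dync2h1, 229 on Tubb3, 149 on Stmn2 and 414 on Dync1i1. No other further AC column had a read on Dynlt3 or Tubb3. Of the 2 columns of the dentate gyrus, N11 had reads on 11 of the genes (2.03% of 89297 reads) and N12 on 22 (0.557% of 190573 reads), and the NPY-negative CA3 cell had reads on 31, 1.49% of its 291745 reads.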
